A study of Mus musculus with 16 samples.

Results

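The genes described here belong to the glandular kallikrein cluster of the mouse, a run of near-identical serine peptidase genes on chromosome 7. They were Klk1, Klk1b3, Klk1b5, Klk1b11, Klk1b16, Klk1b21, Klk1b22, Klk1b24, Klk1b26 and Klk1b27. The 10 genes were chosen on measured values from the same 16 arrays, by a contrast that is not recorded, so their levels and differences are given as a description, with no test. Probes were taken by the gene name in the array files or by the current symbol of the probe's accession. This gave 11 probes for 9 of the 10 genes, out of 24585 genes or unnamed features measured in the series. Klk1b22 had no probe of its own: its transcript was listed only beside that of Klk1b24, on the Klk1b24 probe.

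Whole ovaries came from mice a year old, and total RNA labelled with the dye Cy3 was hybridised to single-colour Agilent arrays, 4 per group. The groups were Ex3aERKO, without estrogen receptor ERα, Ex3bERKO, without ERβ, Ex3abERKO, without either receptor, and a control that carried one allele of each receptor. The strain, the part of each receptor gene that was removed, and whether the 4 samples of a group were separate animals are not given in the labels, so the p-values speak of spread among these RNA samples alone, and that spread may be technical. The study asked what the receptors do when granulosa cells of the aged ovary take on features of another cell type.

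Signal was alike across arrays, with a 75th percentile between 1211 and 1806 intensity units and between 80.4% and 87.6% of spots well above background. The number of arrays limits the precision. Esr1, which encodes ERα, differed from control by -2.38 ± 0.38 in Ex3aERKO (adjusted p = 0.00176) and -1.63 ± 0.38 in Ex3abERKO (adjusted p = 0.00653), on the log2 scale with the standard error. Esr2, which encodes ERβ, differed by 0.43 ± 0.51 in Ex3bERKO (adjusted p = 0.913) and by -1.97 ± 0.51 in Ex3abERKO (adjusted p = 0.0132, and 0.065 without the 3 arrays named next). Where the probes lie relative to the removed parts is not known here, so these values do not check the labels. Markers of the ovary were measured on these arrays: 7 of 7 granulosa, 8 of 8 theca and Leydig and 5 of 6 oocyte genes passed the filter on low signal. Libraries that stood apart were Ex3aERKO 2, where Alb of the liver reached 6.13 against -6.22, -4.92 and -5.26 on the other Ex3aERKO arrays, and Ex3abERKO 2, where Ovgp1 of the oviduct reached 5.43 against -0.33, -2.05 and -0.14. Control 4 stood out as the highest of its group in red blood cell genes. They are called the 3 arrays that stood apart below.

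Glandular kallikreins are secreted peptidases of the trypsin fold. Klk1, the true tissue kallikrein, cuts kininogens to release kinins, which act on the receptors Bdkrb1 and Bdkrb2. The other mouse genes of the cluster arose by duplication, and their products process growth factors and renin, chiefly in the submandibular gland, where androgens raise many of them. In the mouse testis Klk1b21, Klk1b24 and Klk1b27 are known from Leydig cells, the androgen-making cells whose ovarian counterpart is the theca cell.

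Because the genes are so alike, a probe may read more than its own transcript. Of the 11 probes, 5 carried more than 1 RefSeq transcript in the array files. One Klk1 probe (chromosome 7, 40399353 to 40401408, mm7) was listed for Klk1, Klk1b3, Klk1b9 and Klk1b11 and is called the shared Klk1 probe here, while the other (40402636 to 40402791) was listed for Klk1 alone and is called the own Klk1 probe. The Klk1b21 probe was also listed for Klk1b11 and Klk1b24, and the Klk1b24 probe for Klk1b22. Klk1b26 had a probe named Egfbp2 in the files, after the older name of the gene (epidermal growth factor binding protein 2), and another named Klk1b26, and both were listed for both transcripts.

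The probe sequences show how close the targets are. Over the 55 pairs of member probes, 4 pairs shared at least 75% of their bases in an ungapped overlap of at least 40 bases. They include the pair of Klk1b16 and Klk1b5, with 8 differences in 50 bases. The probes of Klk1b24 (40366158 to 40366217), Klk1b27 (40230425 to 40230484) and Klk1b11 (40173583 to 40173642) covered the same stretch of the message. They are printed because the Klk1b11 signal behaved differently from the others in spite of this (r = 0.64 with Klk1b24 and 0.65 with Klk1b27 over the 16 arrays, against 0.90 between those genes), and capitals mark bases that differ from the Klk1b24 probe within the overlap, 6 of 53 for Klk1b27 and 8 of 53 for Klk1b11.
Klk1b24: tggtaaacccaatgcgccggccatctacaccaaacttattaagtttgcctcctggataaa
Klk1b27: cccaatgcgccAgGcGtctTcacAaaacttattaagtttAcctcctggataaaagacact
Klk1b11: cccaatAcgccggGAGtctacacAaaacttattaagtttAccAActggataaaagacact

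The 2 Klk1 probes and the probe of Klk1b4, a neighbouring gene outside the list, are printed because the own Klk1 probe overlapped that of Klk1b4 in 55 bases with 7 differences, in capitals.
Klk1 own probe: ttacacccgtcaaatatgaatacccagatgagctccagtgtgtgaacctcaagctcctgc
Klk1b4: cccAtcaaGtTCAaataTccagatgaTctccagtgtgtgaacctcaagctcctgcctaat
Klk1 shared probe: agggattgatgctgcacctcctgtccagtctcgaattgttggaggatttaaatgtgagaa

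Probe coordinates follow the array files (mm7), with the first base as 1, and the exon or intron at each position is not given here. A level is the log2 ratio of a probe's signal to the 75th percentile of its array, listed for replicates 1 to 4 in order.

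In ovaries without ERα all 9 measured kallikreins averaged above control, by 1.12 to 4.74 on the log2 scale, with a median of 2.88 against -0.083 over all features. For 8 of the 9 every Ex3aERKO array lay above every control array, a separation seen in 7.38% of all features. The choice of genes may have used this contrast. Within the 4 slides all 11 probes were higher in Ex3aERKO, by 0.55 to 7.56. No such range is given for the other knockouts, which were spread unevenly over the slides. Ex3bERKO had no array on slide 2, with replicates 1 and 4 on slide 3. Ex3abERKO had none on slide 3, with replicates 1 and 2 on slide 2. In ovaries without ERβ the 9 genes also averaged higher than in control, by 1.04 to 5.68 with a median of 2.35 against 0.0098 over all features, but for 0 of the 9 were the groups separate (3.76% of all features). In ovaries without both receptors the 9 averages lay 0.35 to 2.21 above control, with a median of 0.78 against -0.11 over all features, and 1 gene, Klk1b11, was separate (11.6% of all features).

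**Figure D1:**
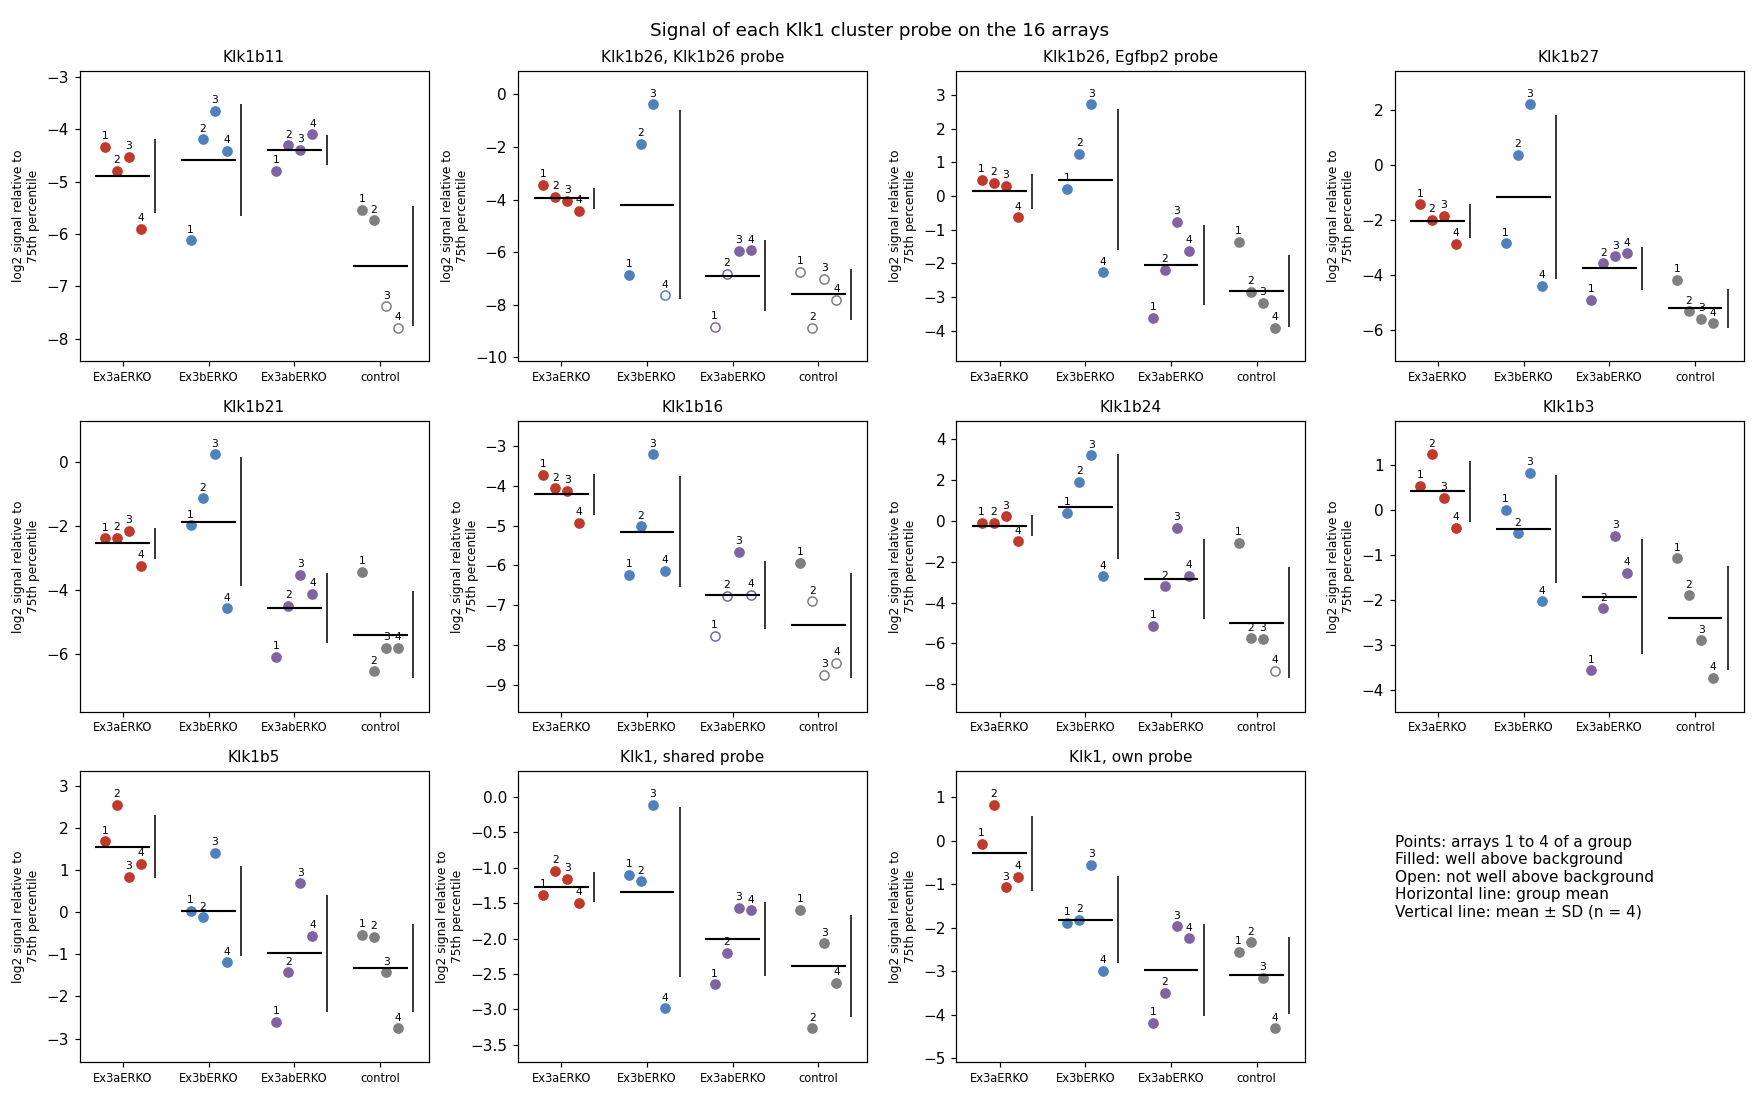
Signal of each of the 11 probes on the 16 arrays (y axis, log2 ratio to the 75th percentile of the array; x axis, the 4 groups), with 1 point per array numbered by replicate, open where not well above background, a line at the mean and a bar for the SD (n = 4). Ex3aERKO points lie close together for most probes, Ex3bERKO points spread with replicates 2 and 3 often highest, and Ex3abERKO and control points lie lower except for Klk1b11.

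Klk1b24, a peptidase also known from mouse Leydig cells, showed the widest differences. Its level was -0.095, -0.098, 0.22 and -0.999 in Ex3aERKO. In Ex3bERKO it was 0.38, 1.91, 3.20 and -2.71, and in Ex3abERKO -5.13, -3.20, -0.36 and -2.69. In control it was -1.08, -5.75, -5.77 and -7.34, the last not well above background. Ex3aERKO arrays lay close together, Ex3bERKO held both the highest values of this probe and a low array, and control 1 stood far above the other control arrays. The difference from control was 4.74 ± 1.36 in Ex3aERKO (26.8-fold), 5.68 ± 1.36 in Ex3bERKO (51.4-fold) and 2.14 ± 1.36 in Ex3abERKO (4.41-fold). Without control 1 the differences were 6.05, 6.99 and 3.44 in the same order, and with the normexp background correction, which treats low signals differently, 3.17, 4.13 and 1.02. Since Klk1b22 shares this probe, the signal may be of either gene.

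Klk1b27, whose probe resembles that of Klk1b24, showed the same order of group averages. In Ex3aERKO its level was -1.44, -2.01, -1.86 and -2.88, in Ex3bERKO -2.85, 0.35, 2.19 and -4.39. In Ex3abERKO it was -4.89, -3.58, -3.33 and -3.22, against -4.17, -5.32, -5.58 and -5.75 in control. Replicates 2 and 3 of Ex3bERKO were the highest of all 16 arrays, while replicate 4 lay within the control range. The difference from control was 3.16 ± 1.04 in Ex3aERKO (8.93-fold), 4.03 ± 1.04 in Ex3bERKO (16.3-fold) and 1.45 ± 1.04 in Ex3abERKO (2.73-fold). With the normexp correction the differences were 1.47, 2.38 and 0.24, and without Ex3bERKO 4 that of Ex3bERKO was 5.10. The SD among Ex3bERKO arrays was 2.99, against 0.61 in Ex3aERKO and 0.71 in control.

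Klk1b21, the third gene known from Leydig cells, averaged -2.55 ± 0.48 in Ex3aERKO, -1.87 ± 2.03 in Ex3bERKO, -4.57 ± 1.09 in Ex3abERKO and -5.41 ± 1.36 in control (SD, n = 4 each). Its Ex3bERKO arrays read -1.98, -1.14, 0.23 and -4.59, so that replicate 3 was again the highest and replicate 4 the lowest. The difference from control was 2.87 ± 0.88 in Ex3aERKO (7.29-fold) and 3.54 ± 0.88 in Ex3bERKO (11.7-fold). In Ex3abERKO it was 0.84 ± 0.88, within the spread of the control arrays. With the normexp correction the differences were 1.15, 1.84 and -0.058, without control 1 that of Ex3aERKO was 3.52, and without Ex3bERKO 4 that of Ex3bERKO was 4.45.

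Klk1b26, which binds epidermal growth factor and also cleaves prorenin, was read by both of its probes. On the Egfbp2 probe (40190180 to 40190608) its level was 0.49, 0.39, 0.31 and -0.64 in Ex3aERKO and 0.22, 1.25, 2.72 and -2.27 in Ex3bERKO. In Ex3abERKO it was -3.62, -2.2, -0.77 and -1.62, against -1.37, -2.85, -3.17 and -3.92 in control. Ex3aERKO did not overlap control, whereas Ex3bERKO and Ex3abERKO did. The difference was 2.97 ± 0.87 in Ex3aERKO (7.81-fold), 3.31 ± 0.87 in Ex3bERKO (9.91-fold) and 0.78 ± 0.87 in Ex3abERKO, and that of Ex3bERKO ran from 2.56 without Ex3bERKO 3 to 4.23 without Ex3bERKO 4. The Klk1b26 probe read -3.44, -3.88, -4.05 and -4.44 in Ex3aERKO and -6.85, -1.88, -0.37 and -7.65 in Ex3bERKO, against -6.74, -8.88, -7.01 and -7.81 in control, where 0 of 4 arrays were well above background. There the gene was at least 7.20-fold higher in Ex3aERKO and, through replicates 2 and 3 alone, at least 6.12-fold higher in Ex3bERKO, whose replicates 1 and 4 lay in the control range. Each bound takes the group's mean against the higher of the probe's own signal and the array's lowest signal well above background. On that probe 3 of 4 Ex3bERKO and 2 of 4 Ex3abERKO arrays were well above background. The 2 probes correlated at r = 0.91 over the 16 arrays.

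Klk1b16, the gamma-renin of the submandibular gland, was dim in the ovary. In Ex3aERKO its level was -3.73, -4.06, -4.13 and -4.93, and in Ex3bERKO -6.23, -5.02, -3.22 and -6.14, all well above background. In Ex3abERKO it was -7.76, -6.77, -5.66 and -6.74, against -5.93, -6.90, -8.75 and -8.44 in control, with 1 array of each of these groups well above background. The difference from control was 3.29 ± 0.70 in Ex3aERKO and 2.35 ± 0.70 in Ex3bERKO. These values rest on substituted signals: with the normexp background correction they were 0.16 and -0.23. The Klk1b16 probe overlapped that of Klk1b5 in 50 bases with 8 differences, and Klk1b5 was far brighter (mean 1.55 against -4.21 in Ex3aERKO). Part of the Klk1b16 signal may be of Klk1b5, which was not tested.

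Klk1b3, the gamma subunit of the nerve growth factor complex, Klk1b5 and the own Klk1 probe formed a second pattern, in which Ex3aERKO rather than Ex3bERKO held the highest average. Ex3aERKO was also first for Klk1b16, the Klk1b26 probe and the shared Klk1 probe, so this order was not particular to them. Klk1b5 (40394484 to 40394542) read 1.68, 2.55, 0.84 and 1.14 in Ex3aERKO and 0.027, -0.13, 1.41 and -1.19 in Ex3bERKO. It read -2.60, -1.43, 0.68 and -0.56 in Ex3abERKO, against -0.55, -0.58, -1.43 and -2.75 in control. Only Ex3aERKO was separate from control, with a difference of 2.88 ± 0.70 (7.35-fold). The difference was 1.36 ± 0.70 in Ex3bERKO and 0.35 ± 0.70 in Ex3abERKO, and in Ex3abERKO its sign turned without Ex3abERKO 3, at -0.20. Klk1b3 averaged 0.41 ± 0.67 in Ex3aERKO, -0.43 ± 1.20 in Ex3bERKO, -1.93 ± 1.27 in Ex3abERKO and -2.40 ± 1.16 in control (SD), 7.03-fold higher in Ex3aERKO than in control. Without the 3 arrays that stood apart the Ex3aERKO difference was 2.07 for Klk1b5 and 2.09 for Klk1b3.

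Klk1 itself gave different answers on its 2 probes. The own probe read -0.066, 0.83, -1.07 and -0.83 in Ex3aERKO and -1.88, -1.82, -0.55 and -2.99 in Ex3bERKO. It read -4.19, -3.50, -1.96 and -2.24 in Ex3abERKO, against -2.55, -2.34, -3.15 and -4.31 in control. On this probe Klk1 was 6.97-fold higher in Ex3aERKO than in control, a difference of 2.80 ± 0.62, and that group stood apart from control on all 4 arrays. The shared probe gave 1.12 ± 0.49 (2.17-fold). In Ex3bERKO the differences were 1.27 ± 0.62 on the own probe and 1.04 ± 0.49 on the shared one, and in Ex3abERKO 0.11 ± 0.62 and 0.38 ± 0.49. The 2 probes correlated at r = 0.71, less than the own probe did with Klk1b5 (r = 0.99) or Klk1b3 (r = 0.95).

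**Figure D2:**
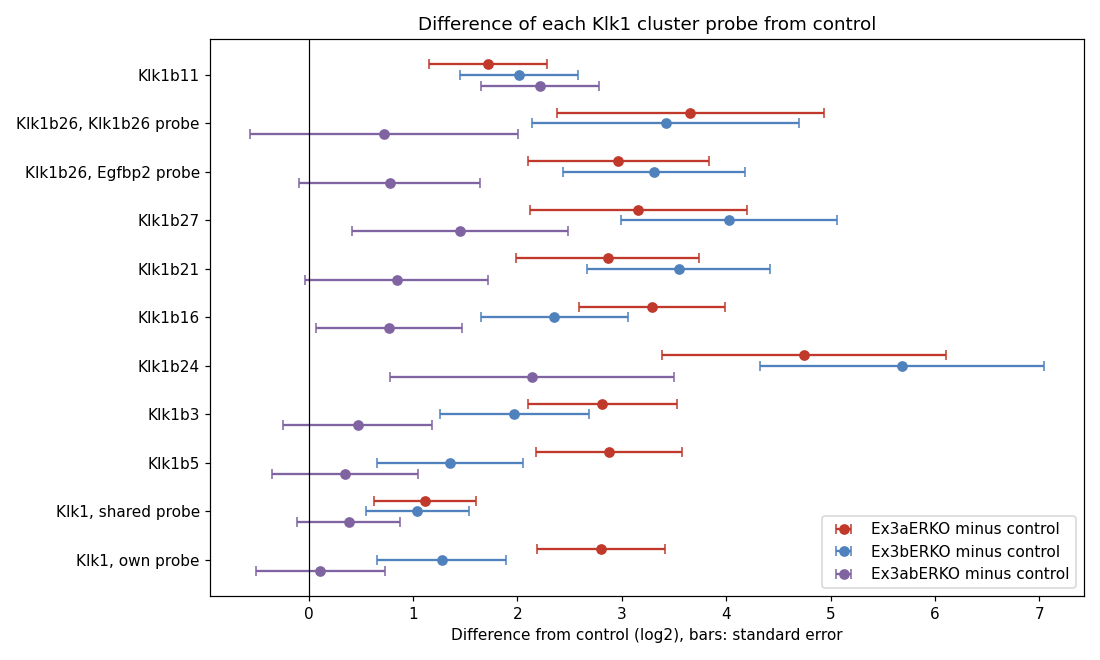
Difference of each probe from control (x axis, log2; bars are standard errors) in the 3 groups, with probes down the page in chromosome order. From Klk1b11 to Klk1b24, apart from Klk1b16 and the Klk1b26 probe, the Ex3bERKO point lies at or right of the Ex3aERKO point, and from Klk1b3 to Klk1 the Ex3aERKO point lies furthest right.

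Klk1b11 departed from the rest. Its level was -4.34, -4.80, -4.53 and -5.90 in Ex3aERKO, -6.12, -4.20, -3.65 and -4.41 in Ex3bERKO. The 4 Ex3abERKO arrays read -4.79, -4.30, -4.39 and -4.10, close together and all above the control arrays. In control the level was -5.53, -5.74, -7.38 and -7.79, with 2 of 4 arrays well above background. It was the only measured member whose 4 Ex3abERKO arrays all lay above control, 2.21 ± 0.56 higher (4.64-fold), and the only one that averaged higher in Ex3abERKO than in Ex3aERKO. Its correlation with the other 10 member probes ran from 0.38 to 0.65. With the normexp correction its differences were -0.28 in Ex3aERKO, -0.092 in Ex3bERKO and 0.097 in Ex3abERKO, so their direction depends on how low signals are treated.

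Setting the double knockout against each single knockout asks whether the high levels of the single knockouts were also present when both receptors were lost. Ex3abERKO averaged lower than Ex3aERKO for 8 of the 9 genes, with a median difference of -2.19 against -0.011 over all features. For 7 of them every Ex3abERKO array was below every Ex3aERKO array, where 6.06% of all features were. The exceptions were Klk1b11, which averaged higher, and Klk1b24, for which Ex3abERKO 3 reached the Ex3aERKO range. Against Ex3bERKO the median difference was -1.58, also with 8 of 9 genes lower, and 0 genes were separate (10.2% of all features). Between the single knockouts the median of Ex3aERKO minus Ex3bERKO was -0.30, with 4 genes higher in Ex3aERKO, 5 lower and 0 separate (3.12% of features with Ex3aERKO higher). These comparisons share arrays with those against control.

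The interaction contrast asks whether the loss of ERβ acted differently with and without ERα. It subtracts the difference between Ex3bERKO and control from that between Ex3abERKO and Ex3aERKO. It was below 0 for all 9 genes, from -8.29 ± 1.92 for Klk1b24 to -1.52 ± 0.80 for Klk1b11, with a median of -4.87 against 0.00039 over all features. It was -5.74 ± 1.47 for Klk1b27, -5.50 ± 1.23 for Klk1b26 on the Egfbp2 probe and -3.88 ± 0.99 for Klk1b5. On the normexp values that of Klk1b11 was 0.47 and that of Klk1b16 -0.48, while that of Klk1b24 was -6.29. The genes may have been chosen on this contrast, so its direction is a description only.

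In order of average level, control was lowest for each of the 11 probes, and Ex3aERKO and Ex3bERKO took the upper places for all but Klk1b11. Ex3bERKO was first for Klk1b21, Klk1b24, Klk1b27 and the Egfbp2 probe, and Ex3aERKO for Klk1b3, Klk1b5, Klk1b16, the Klk1b26 probe and both Klk1 probes, with Ex3abERKO first for Klk1b11. The arrays of Ex3aERKO and Ex3bERKO overlapped for each of the 9 genes, and those of Ex3abERKO overlapped control in 8. With so few arrays, overlap does not show that groups were equal, and no test was made. Ex3aERKO minus Ex3bERKO was above 0 for 4 genes and below 0 for 5. It was 1.52 for Klk1b5, from 1.12 to 1.98 over the alternatives. For Klk1b24 it was -0.94, from -2.08 to -0.10.

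The members moved together from array to array. Correlations between the probes of Klk1b21, Klk1b24, Klk1b27 and Klk1b26 (Egfbp2 probe) ran from 0.90 to 0.98, and that of Klk1b3 with Klk1b5 was 0.96. Klk1b5 with Klk1b27 gave 0.69. The 16 arrays share their group means, and some of the probes may read the same transcripts, so these values describe likeness only. Likeness did not follow the chromosome order throughout. Klk1b16, which lies between Klk1b21 and Klk1b24, correlated at 0.92 with Klk1b3 and at 0.86 and 0.88 with those 2, and the shared Klk1 probe at 0.92 with Klk1b21 and 0.73 with Klk1b5. The Klk1b16 probe resembles that of Klk1b5 (r = 0.89), so part of its likeness may be shared signal.

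**Figure D3:**
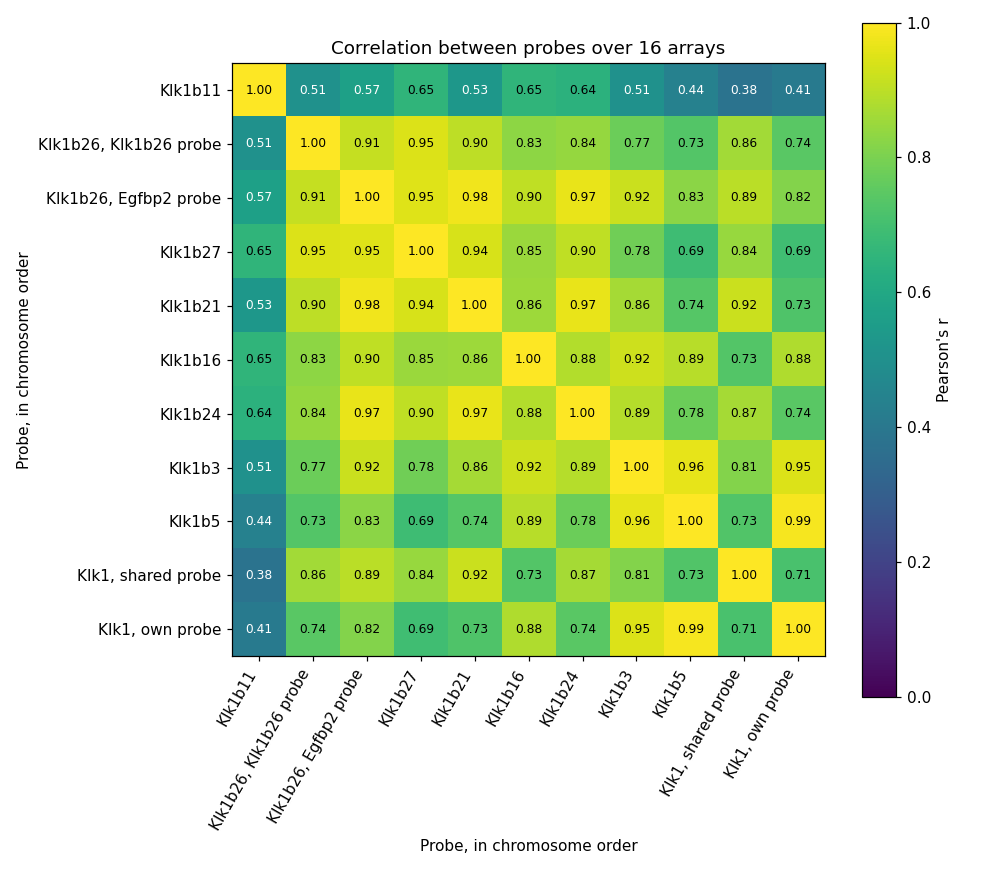
Pearson's r between the member probes over the 16 arrays, with probes in chromosome order on both axes and the colour running from 0 to 1. Klk1b11 stands apart, with no r above 0.65, and the probes of Klk1b3, Klk1b5 and Klk1 (own probe) form a block of 0.95 to 0.99.

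The promoters of the members are also alike. In RefSeq's GRCm38.p6 promoter table, with windows from 250 bases before to 50 after the annotated start, pairs of member promoters were 79.5% to 97.7% identical over their aligned bases. The most alike were Klk1b21 and Klk1b24, whose levels correlated at 0.97, though the Klk1b21 probe is also listed for Klk1b24. Klk1b11 and Klk1b26 were 91.6% identical and their levels correlated at 0.57, while Klk1b21 and Klk1b26, 86.7% identical, correlated at 0.98. The 250 bases before the start are printed for this pair and for Klk1b5, of the second pattern, all on the plus strand of chromosome 7 (Klk1b24, chr7:44187986-44188235; Klk1b21, chr7:44102042-44102291; Klk1b5, chr7:44216224-44216473). Capitals mark TGACC, the estrogen response half-site, AGAACA, the androgen and glucocorticoid response half-site, and TTTAAA, each on either strand.
Klk1b24: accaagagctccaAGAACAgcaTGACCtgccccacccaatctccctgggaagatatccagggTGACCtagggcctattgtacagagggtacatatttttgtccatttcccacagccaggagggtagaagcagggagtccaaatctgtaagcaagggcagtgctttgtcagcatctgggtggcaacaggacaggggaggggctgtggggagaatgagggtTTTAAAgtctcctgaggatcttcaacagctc
Klk1b21: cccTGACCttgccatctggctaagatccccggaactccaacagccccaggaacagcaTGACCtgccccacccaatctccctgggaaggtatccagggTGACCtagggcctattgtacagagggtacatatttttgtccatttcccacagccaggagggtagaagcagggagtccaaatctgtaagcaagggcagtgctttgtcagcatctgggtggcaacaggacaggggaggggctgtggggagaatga
Klk1b5: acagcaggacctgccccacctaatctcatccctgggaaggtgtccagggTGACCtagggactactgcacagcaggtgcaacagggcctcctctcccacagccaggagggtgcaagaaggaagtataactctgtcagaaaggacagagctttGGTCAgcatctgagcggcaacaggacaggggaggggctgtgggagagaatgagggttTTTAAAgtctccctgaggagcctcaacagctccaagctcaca

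Among the 10 member windows of 250 bases, 7 held TGACC, as did 35.2% of all 32851 promoter windows in the table. AGAACA was in 2 of the 10, Klk1b24 and Klk1b3, and in 16.1% of all windows. TTTAAA was in 8 of the 10 and in 12.1% of all windows, whereas TATAAA, the usual TATA box letters, was in 0 of the 10 and in 12.4% of all. The full response elements GGTCANNNTGACC and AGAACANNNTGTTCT were in 0 of the 10, and in 0.0639% and 0.00913% of all windows. The longest word shared by at least 5 member windows, found by comparing them, had 30 bases, GTCAGCATCTGGGTGGCAACAGGACAGGGG, and its 5 holders, Klk1b3, Klk1b11, Klk1b16, Klk1b21 and Klk1b24, were the only windows in the table with it. Because the member windows are alike in sequence, their counts do not stand for separate cases. The Klk1b21 window ends before the stretch that holds TTTAAA in Klk1b24. Such matches describe the letters of these windows and say nothing of binding.

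Beside the kallikreins, 3 of 8 listed genes of androgen-making cells (theca and Leydig) followed some of the same arrays. In Ex3aERKO these 3, Insl3, Hsd17b3 and Cyp17a1, rose against control, while Cyp11a1, Star and Hsd3b6 fell. In Ex3bERKO 2 rose and 1 fell, and in Ex3abERKO 1 rose and 5 fell. Of all features 3.77%, 0.382% and 10.6% rose in the 3 knockouts, and 4.15%, 0.626% and 11.6% fell. Without the 3 arrays that stood apart 3, 1 and 0 of the 8 genes rose and 1, 0 and 5 fell. With the normexp correction 3, 1 and 0 rose and 1, 1 and 5 fell. The rise of Hsd17b3 in Ex3bERKO was lost under both settings (adjusted p = 0.191 and 0.361). Insl3, an insulin-like peptide made by Leydig and theca cells, read 0.42, 5.65, 6.23 and -0.41 on the 4 Ex3bERKO arrays, and Hsd17b3, the testicular testosterone-making enzyme, -2.31, 1.25, 1.17 and -2.63. Replicates 2 and 3, which were highest for Klk1b24, Klk1b27 and Klk1b21, were thus also the high arrays for both genes. Replicates 1 and 4 lay on slide 3, replicate 2 on slide 1 and replicate 3 on slide 4. Slide and sample cannot be told apart in this split. Over the 16 arrays the mean of the standardised member levels correlated at 0.86 with Hsd17b3, 0.76 with Insl3 and 0.70 with Cyp17a1, which makes androgen precursors, against -0.27 with Star, -0.088 with Lhcgr and a median of -0.0018 over all features. Cyp17a1 was high on all 4 Ex3bERKO arrays, from 3.06 to 4.19, and so did not follow their differences. Insl3 averaged 3.25 in Ex3abERKO, against -0.24 in control (adjusted p = 0.0472, and 0.200 without the 3 arrays that stood apart). The whole list of 8 theca and Leydig genes, summed on the linear scale, ran from 8.06 to 8.42 in Ex3aERKO, 7.95 to 8.26 in Ex3bERKO, 6.31 to 7.20 in Ex3abERKO and 8.28 to 8.78 in control (log2), and correlated with the members at 0.026. The part of these cells in the kallikrein levels was not tested, and in whole ovaries fewer cells of a type and less RNA per cell cannot be told apart.

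**Figure D4:**
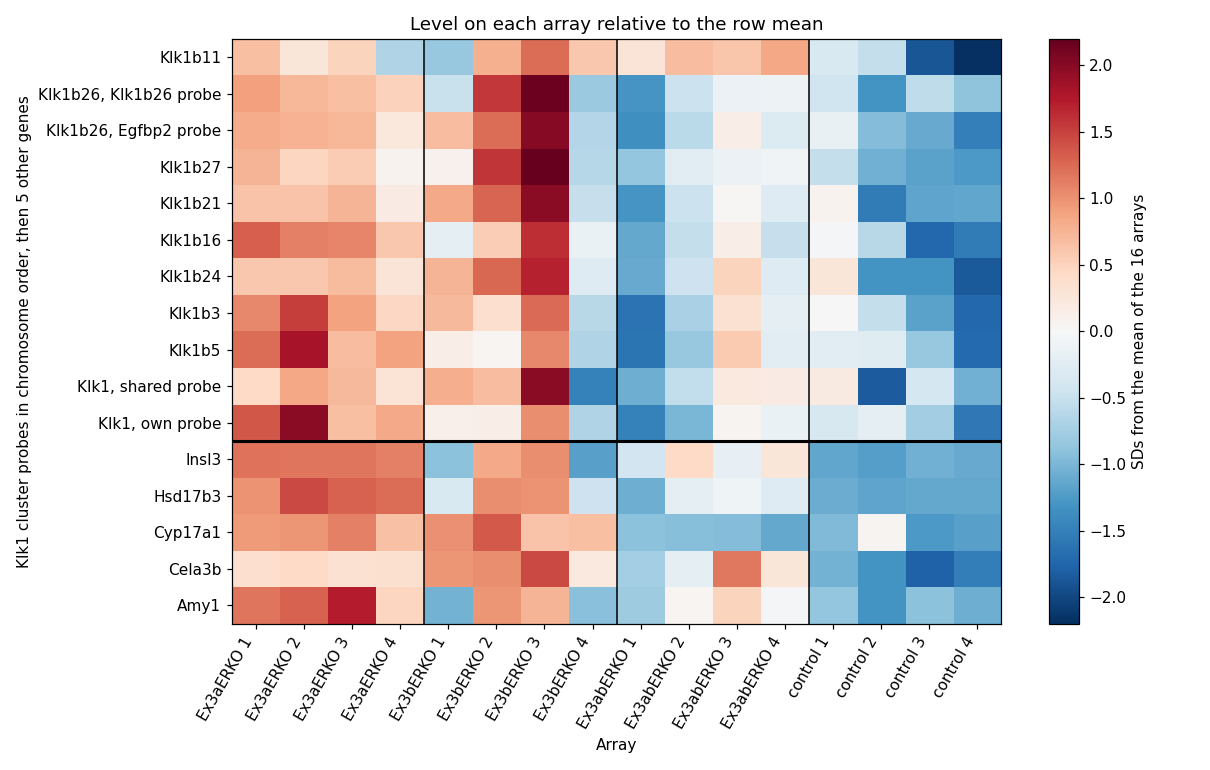
Level on each of the 16 arrays (x axis, grouped by vertical lines) relative to the row's own mean, in SDs (colour), for the 11 member probes in chromosome order and, beneath the heavy line, Insl3, Hsd17b3, Cyp17a1, Cela3b and Amy1. Ex3bERKO 3 is the darkest red column for most kallikreins, and Ex3bERKO 4 is blue for every member but Klk1b11 and for Insl3, Hsd17b3 and Amy1.

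Markers of glands that make kallikreins were measured too. For the submandibular gland, Smgc was well above background on at most 5 of the 16 arrays and Dcpp1 on at most 2, and 5 of the 7 listed genes passed the filter. Their summed level ran from 3.44 to 4.91 in Ex3aERKO, 1.72 to 4.03 in Ex3bERKO, 2.01 to 3.5 in Ex3abERKO and 1.41 to 1.95 in control. It was nearly all from Amy1, an amylase that other tissues also make, which rose by 2.60 ± 0.51 in Ex3aERKO against control (adjusted p = 0.00614, and 0.0731 without the 3 arrays that stood apart), while Bpifa2 and Egf fell there. The sum correlated with the members at 0.79. Prol1, another gene of the list, was well above background on 10 arrays, 1 of them a control array, and correlated with the members at 0.78. It was the feature outside the kallikrein family closest to the shared Klk1 probe (r = 0.83). The own Klk1 probe was not used for this. Of the 11 pancreas genes 9 were well above background on all 16 arrays, and their sum correlated with the members at 0.71. The 11 genes summed to 1.57 to 1.90 in Ex3aERKO, 1.97 to 2.65 in Ex3bERKO, 1.36 to 2.16 in Ex3abERKO and 1.24 to 1.80 in control. One of them, Cela3b, an elastase of the acinar cell, rose in each knockout, by 1.86 ± 0.35 in Ex3aERKO (adjusted p = 0.00498), 2.42 ± 0.35 in Ex3bERKO (adjusted p = 0.00369) and 1.59 ± 0.35 in Ex3abERKO (adjusted p = 0.00513). The Ex3aERKO call was lost without the 3 arrays (adjusted p = 0.0613). Over the whole pancreas list 2 rose and 1 fell in Ex3aERKO, 1 rose in Ex3bERKO, and 1 rose and 2 fell in Ex3abERKO, with median differences of -0.41, -0.079 and -0.37. The 6 kidney tubule genes, from another source of Klk1, summed to -1.39 to 0.25, -0.90 to -0.035 and -0.91 to 1.23 in Ex3aERKO, Ex3bERKO and Ex3abERKO, and to -0.84 to -0.089 in control. Their part in the kallikrein levels was not tested.

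The features whose profile over the 16 arrays was most like the mean of the members, outside the kallikrein family, were Aldh1a7 (r = 0.90), Fabp3 (0.89), Stard8 (0.87), Gstm2 (0.87), Tpd52l1 (0.87), Serpina3m (0.87) and Lancl3 (0.86), with 3 of the first 10 features unnamed. Aldh1a7, an aldehyde dehydrogenase, read 3.05, 3.21, 2.60 and 2.50 in Ex3aERKO, 1.15, 2.59, 3.04 and 0.66 in Ex3bERKO. Its Ex3abERKO arrays read 0.90, 1.15, 1.83 and 0.98, against 0.28, 0.25, 0.066 and -0.17 in control. It too was highest in Ex3bERKO on replicates 2 and 3, which lay on other slides than replicates 1 and 4. For single genes, the closest were Cela3b, Serpina3c and Cd59a for Klk1b24 (0.88, 0.87 and 0.86), Wnt2b, Frmd7 and 1700080O16Rik for Klk1b5 (0.91, 0.89 and 0.89), Slc29a1, Stard8 and Lifr for Klk1b27 (0.89, 0.86 and 0.86), and Il11ra1, Olfr812 and Hnmt for Klk1b11 (0.89, 0.87 and 0.86).

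Genes around the kallikreins were then taken from 6 lists with 58 genes in all, 48 of them measured, and these were tested over all 24585 features. Against control, 10 rose and 1 fell in Ex3aERKO, where 3.77% and 4.15% of all features did. In Ex3bERKO 2 rose and 0 fell, against 0.382% and 0.626% of all features, and in Ex3abERKO 12 rose and 2 fell, against 10.6% and 11.6%. Their median difference was 0.47 in Ex3aERKO, 0.21 in Ex3bERKO and 0.26 in Ex3abERKO, beside -0.083, 0.0098 and -0.11 over all features. The lists were written with earlier results of these data known, so these counts and medians are a description. They include Klk1b4, whose probe nearly matches the own Klk1 probe. Differences below are log2 with standard errors and adjusted p from limma.

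The cluster genes outside the list were Klk1b1, which was too dim to test, Klk1b4, Klk1b8 and Klk1b9. Klk1b4, the alpha subunit of the nerve growth factor complex, read -1.13, -0.36, -1.91 and -1.89 in Ex3aERKO, against -2.77, -3.62, -3.32 and -4.26 in control. It rose by 2.17 ± 0.56 (4.49-fold, adjusted p = 0.0266), from 1.42 to 2.48 within the 4 slides, a call lost without control 2, 3 or 4, Ex3aERKO 1 or 2, with the normexp correction (adjusted p = 0.198) and without the 3 arrays that stood apart (0.255, the highest of 25 alternatives). As its probe nearly matches the own Klk1 probe, the 2 genes may not be told apart. The test of Klk1b4 may then rest on signal of Klk1, a member chosen on measured values. In Ex3bERKO and Ex3abERKO Klk1b4 differed by 0.72 ± 0.56 and 0.32 ± 0.56. Klk1b8 averaged -0.44 ± 0.47 in Ex3aERKO and -0.27 ± 1.03 in Ex3bERKO, against -1.70 ± 0.40 in control (SD, n = 4 each), and its differences did not pass the test against control. It fell by 1.36 ± 0.44 in Ex3abERKO against Ex3bERKO (adjusted p = 0.0474), a call lost in 19 of 25 alternatives. Klk1b9, another binding protein of epidermal growth factor, differed by at most 0.080 ± 0.47 from control in any knockout.

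Of the kallikrein-related peptidases beyond the cluster 9 were measured. In Ex3aERKO 1 rose, in Ex3bERKO 0 and in Ex3abERKO 1, where 3.77%, 0.382% and 10.6% of all features did, and 0 fell. Their median difference was -0.096, 0.14 and 0.094 in the same order. Klk4, an enamel-matrix peptidase, rose by 1.14 ± 0.18 in Ex3aERKO (2.2-fold, adjusted p = 0.00201), reading -0.79, -0.89, -1.34 and -1.17 against -2.0, -1.87, -2.51 and -2.35 in control. Klk8, or neuropsin, rose by 1.02 ± 0.25 in Ex3abERKO (2.03-fold, adjusted p = 0.00962), lost without the 3 arrays that stood apart (0.0625). With the normexp correction neither passed, at adjusted p = 0.166 and 0.804.

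The partners of Klk1 in the kinin pathway did not pass the test in any comparison, with 3 of 4 measured. Kng1, the kininogen from which kinins are cut, read -5.41, 1.36, -5.31 and -5.61 in Ex3aERKO, -5.18, -6.13, -8.36 and -7.52 in Ex3bERKO. Its Ex3abERKO arrays read -3.20, -4.17, -4.60 and -3.69, against -6.87, -6.59, -6.72 and -5.63 in control. Its high array was Ex3aERKO 2, the one with liver genes, and 2 arrays each of Ex3bERKO and control were not well above background. In Ex3abERKO it was 2.54 ± 1.22 above control (adjusted p = 0.157), with adjusted p from 0.00573, without Ex3aERKO 2, to 0.873 over the alternatives, and 0.0146 without the 3 arrays that stood apart. Bdkrb1, the inducible kinin receptor, differed from control by 0.028 ± 0.20, 0.068 ± 0.20 and 0.047 ± 0.20 in the 3 knockouts, and Bdkrb2, the constitutive one, by -0.20 ± 0.41, 0.19 ± 0.41 and 0.37 ± 0.41. Kng2 was too dim to test.

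Of the 10 listed peptidases that break kinins down, 2 rose in Ex3aERKO, 0 changed in Ex3bERKO, and in Ex3abERKO 3 rose and 1 fell. Of all features 3.77%, 0.382% and 10.6% rose in the 3 knockouts, and 4.15%, 0.626% and 11.6% fell. Ace, the angiotensin-converting enzyme, rose by 1.18 ± 0.22 in Ex3aERKO (adjusted p = 0.00404) and by 1.5 ± 0.22 in Ex3abERKO (adjusted p = 0.000315). Dpp4, a dipeptidyl peptidase, rose by 1.82 ± 0.39 (adjusted p = 0.00964) and 1.87 ± 0.39 (adjusted p = 0.00323). Both Ex3aERKO calls were lost without the 3 arrays that stood apart (adjusted p = 0.0746 and 0.0597) and with the normexp correction (0.186 and 0.0613). In Ex3abERKO Cpm, a carboxypeptidase, rose by 0.88 ± 0.23 (adjusted p = 0.014), while Thop1, a cytosolic oligopeptidase, fell by 1.47 ± 0.30 (adjusted p = 0.00276). The call of Cpm was lost without the 3 arrays (adjusted p = 0.108) and with the normexp correction (0.232).

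Among 10 reported substrates and their receptors, Egf, whose precursor is processed by members of the cluster in the salivary gland, fell by 0.97 ± 0.27 in Ex3aERKO (adjusted p = 0.0417), a call lost in 15 of 25 alternatives, among them without the 3 arrays that stood apart (0.101). Thus 1 of the 10 fell in Ex3aERKO, where 4.15% of all features did, and 2 rose in Ex3abERKO, where 10.6% did. In Ex3bERKO 0 passed. In Ex3abERKO Agtr2, an angiotensin receptor, rose by 2.32 ± 0.45 (4.98-fold, adjusted p = 0.00222) and Igfbp3, an insulin-like growth factor binding protein, by 1.5 ± 0.47 (adjusted p = 0.0326). Igfbp3 rested on Ex3abERKO 2, whose level of 2.42 stood above 0.47 to 0.65 on the others, its adjusted p was 0.0973 without that array and 0.134 without the 3 arrays that stood apart, and it was lost in 8 of 25 alternatives.

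Inhibitors of serine peptidases formed the list with the most calls, among lists written with earlier results of these data known. Of 13 measured, 6 rose in Ex3aERKO, 2 in Ex3bERKO and 6 in Ex3abERKO, where 3.77%, 0.382% and 10.6% of all features did, and 1 fell in Ex3abERKO. Without the 3 arrays that stood apart 5, 1 and 6 rose. Spink8, a Kazal-type inhibitor, was not well above background on any control array and read 0.41, 1.45, 2.75 and -1.47 in Ex3aERKO, -5.65, -1.64, -2.11 and -5.71 in Ex3bERKO. Its Ex3abERKO arrays read -3.02, 0.55, 0.45 and -0.69. The gene was at least 193-fold higher in Ex3aERKO (adjusted p = 0.000543) and at least 69.6-fold higher in Ex3abERKO (adjusted p = 0.000661) than in control, and in Ex3bERKO replicates 2 and 3 were once more the high arrays. Those Ex3bERKO arrays again lay on other slides than replicates 1 and 4. With the normexp correction the Ex3abERKO call was lost (adjusted p = 0.0759). Wfdc2, a whey-acidic-protein inhibitor, rose by 5.03 ± 0.51 in Ex3aERKO (32.6-fold, adjusted p = 0.000121) and by 5.05 ± 0.51 in Ex3abERKO (adjusted p = 3.91e-05).

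Other inhibitors changed in more than one knockout. Eppin, known from the epididymis, rose by 4.51 ± 0.40 in Ex3aERKO (22.8-fold, adjusted p = 8.7e-05), 3.47 ± 0.40 in Ex3bERKO (11.1-fold, adjusted p = 0.00114) and 3.23 ± 0.40 in Ex3abERKO (9.37-fold, adjusted p = 0.000143). Serpina3n, an acute-phase serpin, rose by 5.28 ± 0.63 in Ex3aERKO (38.9-fold, adjusted p = 0.000322), 3.41 ± 0.63 in Ex3bERKO (adjusted p = 0.0171) and 5.64 ± 0.63 in Ex3abERKO (adjusted p = 7.03e-05), and the Ex3bERKO call was lost without control 3 or 4, Ex3bERKO 3 or the 3 arrays that stood apart and with the normexp correction (adjusted p up to 0.373). Serping1, the C1 inhibitor, rose by 1.74 ± 0.33 in Ex3aERKO (adjusted p = 0.00499) and 1.93 ± 0.33 in Ex3abERKO (adjusted p = 0.000957). Slpi, a secreted inhibitor of leukocyte peptidases, rose by 2.38 ± 0.54 (adjusted p = 0.0147, lost without Ex3aERKO 2 or 3, and without the 3 arrays that stood apart at 0.106) and 4.07 ± 0.54 (adjusted p = 0.000215). Serpina5, the protein C inhibitor, which also inhibits tissue kallikrein, read 0.36, 1.54, 2.37 and 1.4 in Ex3abERKO, against 4.30, 2.48, 4.04 and 2.90 in control. It fell by 2.01 ± 0.44 (4.04-fold, adjusted p = 0.00448), and did not pass in either single knockout.

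Markers of some other cells changed in groups where inhibitors rose. Of 6 macrophage genes 2 rose in Ex3aERKO, 0 in Ex3bERKO and 6 in Ex3abERKO, and their summed level ran from 7.85 to 8.12 in Ex3aERKO, 7.45 to 7.96 in Ex3bERKO, 8.26 to 8.38 in Ex3abERKO and 7.20 to 7.64 in control. Without the 3 arrays that stood apart 0 macrophage genes rose in Ex3aERKO and 6 in Ex3abERKO, and with the normexp correction 1 and 6. Of 6 oviduct and ciliated cell genes 0 passed in Ex3aERKO, and Foxj1 and Pax8 rose in Ex3abERKO. The sum ran from -0.038 to 2.13, 0.49 to 0.89 and -0.084 to 5.90 in the 3 knockouts and from -0.099 to 0.48 in control. With the normexp correction neither gene passed (adjusted p = 0.327 for Foxj1 and 0.917 for Pax8). Pax8 was also lost without the 3 arrays that stood apart (0.173). Of all features 3.77%, 0.382% and 10.6% rose in the 3 knockouts, and 4.15%, 0.626% and 11.6% fell. All 5 measured oocyte genes fell in Ex3aERKO and in Ex3abERKO, with sums of -0.17 to 2.00 and 1.61 to 2.37, against 3.46 to 4.63 in control. Without the 3 arrays that stood apart 3 of these 5 genes passed in each of the 2 knockouts, and with the normexp correction all 5. Other lists moved differently. Of 6 adipose genes 3 fell in Ex3aERKO and 1 rose in Ex3abERKO. Of 7 granulosa genes 2 rose and 1 fell in Ex3aERKO, and 1 rose and 3 fell in Ex3abERKO. Of 4 measured erythroid genes 0 passed in either. Without the 3 arrays that stood apart 0 granulosa genes passed in Ex3aERKO, and 2 erythroid genes rose in Ex3abERKO. The part of these cells in the inhibitor levels was not tested.

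**Figure D5:**
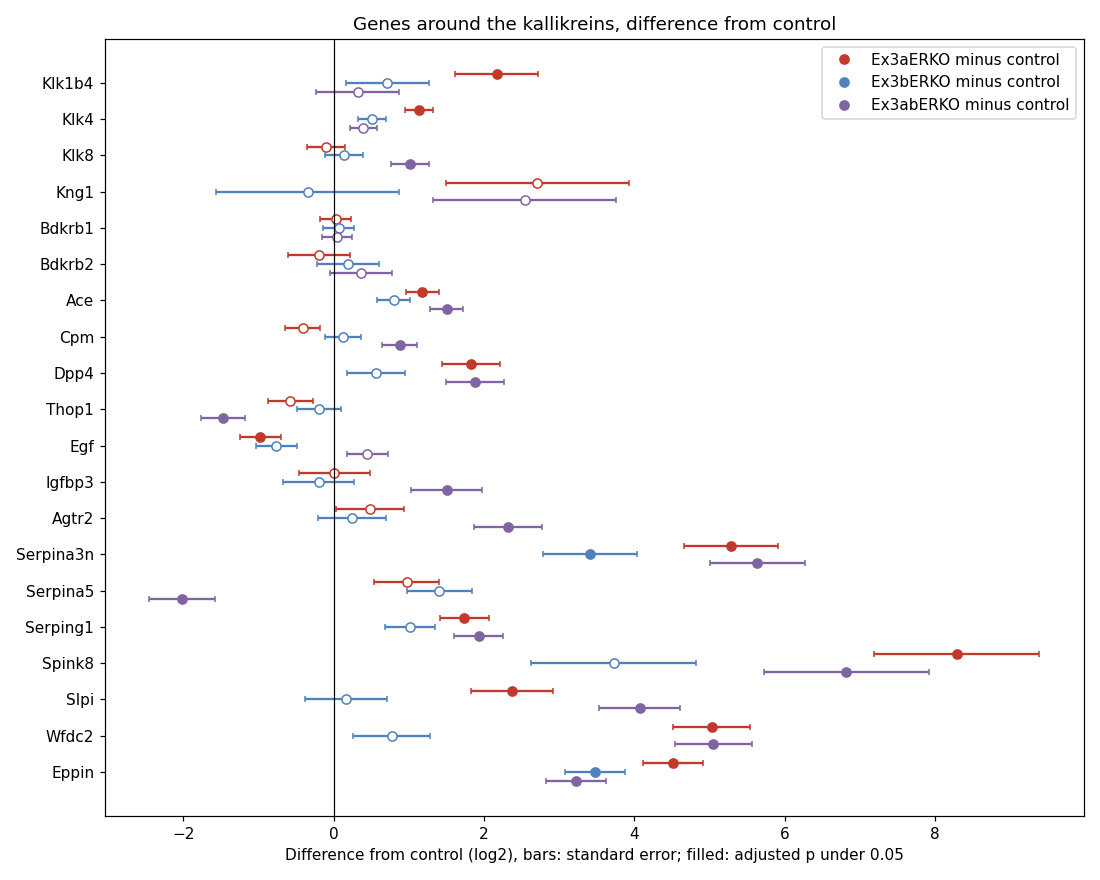
Difference from control (x axis, log2; bars are standard errors) of the tested genes around the kallikreins that passed in at least 1 knockout, with Kng1, Bdkrb1 and Bdkrb2, by group; filled points passed at an adjusted p under 0.05. The inhibitors at the bottom lie furthest to the right, up to 8.28 for Spink8 in Ex3aERKO, and the kinin receptors lie near 0.

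Between knockouts, 6 of the 48 genes passed in Ex3abERKO against Ex3aERKO (4 rose and 2 fell, against 7.74% of all features in either direction), 13 in Ex3abERKO against Ex3bERKO (10 rose and 3 fell, against 16.6%) and 3 in Ex3aERKO against Ex3bERKO (3 rose, against 2.31%). Serpina5 fell by 2.98 ± 0.44 in Ex3abERKO against Ex3aERKO (adjusted p = 0.00147) and by 3.42 ± 0.44 against Ex3bERKO (adjusted p = 0.000352). Wfdc2 rose by 4.25 ± 0.51 in Ex3aERKO against Ex3bERKO (19.0-fold, adjusted p = 0.000827). The interaction passed for 5 of the 48 genes (3.55% of all features), which were Serpina5, Eppin, Egf, Klk4 and Klk1b8. Without the 3 arrays that stood apart those of Klk4 and Klk1b8 were lost (adjusted p = 0.101 and 0.197).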

How the data were processed

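Total RNA of 16 whole-ovary samples was read on 1-colour Agilent arrays. Per the file headers, Agilent Feature Extraction gave each spot an intensity from which background had been subtracted, with small substitutes for signals not above background. Version 9.5 is named in the submitters' processing notes. The authors' deposited series table held intensity values that matched for all 41174 probes within a relative tolerance of 0.0001.

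Processed signals were scaled to the 75th percentile of the 43379 non-control spots on the same array, floored at -8.88 (log2) and log2-transformed, with outlier spots left out and a probe's spots averaged. Probes well above background on at least 4 of 16 arrays were kept, and the brightest stood for its gene, which for Klk1 was the shared probe and for Klk1b26 the Egfbp2 probe. That left 24585 features, 18292 with a symbol. Probes were named through RefSeq accessions of GRCm38.p6 (22951), current symbols (6659) or older symbols (3109).

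limma 3.58.1 (lmFit, eBayes; R 4.3.3) was fitted over all 16 arrays with 1 mean per group and 12 residual degrees of freedom. Two-sided p-values received a Benjamini-Hochberg adjustment over all features of a comparison, and called under 0.05. The model was tested on simulated data. Values after ± are standard errors unless marked SD. Members and gene lists were chosen with earlier results of these data known. Of the listed genes, 1 is not reported here, and list counts leave it out. Named were all members, up to 4 called genes per list and comparison, Kng1, Bdkrb1 and Bdkrb2, and the features most like the members. Alternatives were slide or replicate blocks, the normexp background correction, median or quantile scaling, other filters, probe averages and leaving out arrays. Files and figures used Python 3.11.15.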

Additional observations from a re-analysis of the deposited data

Results flagged for a closer look

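Single arrays stood apart from the other 3 of their group in 8 of 140 groups of 4 examined (11 member probes, neighbouring kallikrein probes and part of the tested genes around them, not all 48), by a gap that, as a share of the group's range, passed Dixon's critical value for 4 samples. Chance gives about 5% of groups. For the Egfbp2 probe of Klk1b26, Ex3aERKO 4 was lowest at -0.64, against 0.31 to 0.49 on the others. Ex3aERKO 4 was also lowest for Serpina3n at 0.084 (others 1.00 to 1.11) and for Serping1 at 3.48 (others 4.34 to 4.45). Dpp4 was lowest on Ex3bERKO 4 at -2.53 (others -1.26 to -1.11), and Thop1 on control 4 at -0.62 (others -0.20 to -0.14). Igfbp3 was highest on Ex3abERKO 2 at 2.42 (others 0.47 to 0.65), Klk4 on Ex3abERKO 2 at -1.64 (others -1.86 to -1.82) and Kng1 on Ex3aERKO 2 at 1.36 (others -5.61 to -5.31).

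The effect of losing ERβ differed between ovaries with and without ERα, by the interaction term of the model, for 5 genes outside the list. The interaction was -4.76 ± 0.56 for Eppin (adjusted p = 0.000844), -4.39 ± 0.62 for Serpina5 (adjusted p = 0.00195), 2.18 ± 0.39 for Egf (adjusted p = 0.00721), -1.25 ± 0.26 for Klk4 (adjusted p = 0.0173) and -2.62 ± 0.62 for Klk1b8 (adjusted p = 0.0322). That of Klk1b8 was lost in 11 of 25 alternatives, and that of Klk4 in 3 of 25, slide as a block among them (adjusted p = 0.0619).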

How the results depend on the processing

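Comparisons are given in the order Ex3aERKO, Ex3bERKO and Ex3abERKO against control, Ex3abERKO against Ex3aERKO and against Ex3bERKO, Ex3aERKO against Ex3bERKO, and the interaction. The numbers of genes called were 1949, 248, 5474, 1903, 4085, 569 and 872. With the normexp background correction they were 955, 151, 3148, 757, 1962, 233 and 340, and without control 4, Ex3aERKO 2 and Ex3abERKO 2 they were 539, 63, 3248, 849, 2464, 234 and 251. Of the 48 genes around the kallikreins, normexp called 6, 1, 3, 6, 1 and 2, and leaving out the 3 arrays 6, 1, 3, 7, 1 and 3, in the same order without Ex3abERKO against control. With slide as a block, Ex3abERKO against Ex3bERKO gave 2149 genes and 6 of the 48, the interaction 3 of the 48, and Ex3aERKO against Ex3bERKO 1 of the 48, as it did with no filter on dim probes. Leaving out 1 array at a time gave 1128 to 2624, 108 to 364, 3895 to 6344, 1116 to 2293, 2398 to 5071, 282 to 868 and 504 to 1340 genes, and 8 to 12, 1 to 2, 13 to 15, 4 to 8, 6 to 15, 1 to 4 and 4 to 7 of the 48. The cause was not tested. The difference of A2m in Ex3abERKO against Ex3bERKO was -0.04 on its brightest probe and 1.51 (adjusted p = 0.0142) as the mean over its probes.

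The median difference of the 9 members ran, leaving out 1 array at a time, from 2.60 to 3.45, 1.71 to 2.88, 0.41 to 1.3, -2.62 to -1.67, -2.03 to -1.08, -0.47 to 0.40 and -5.4 to -4.23. Under the other settings it ran from 1.47 to 2.89, 1.61 to 2.64, 0.24 to 0.91, -2.34 to -1.23, -2.02 to -1.32, -0.33 to -0.054 and -4.91 to -3.6. Signs of single members turned under normexp for Klk1b11 in Ex3aERKO (-0.28), Ex3bERKO (-0.092) and the interaction (0.47), Klk1b16 in Ex3bERKO (-0.23) and Ex3abERKO (-0.55) and Klk1b21 in Ex3abERKO (-0.058). Klk1b1, Klk1b22 and Kng2, among others, were too dim or without a probe, and Klk1b16, Klk1b11 and the Klk1b26 probe lie near background, which limits their values.

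Replicate numbers occur in every group, but same-numbered samples did not deviate together throughout. Over 24 pairs the correlation of deviations from the group means ran from -0.29 to 0.44, with 7 above 0.1. The highest values, 0.44, 0.39, 0.30 and 0.22, were those of the same-numbered pairs that also shared a slide. With the replicate number as a block, the genes called were 1795, 209, 5195, 1595, 3701, 483 and 699, and 11, 2, 14, 8, 11, 2 and 5 of the 48. Under the block Cpm (adjusted p = 0.0562), Klk1b8 (0.0524) and Klk8 (0.0514) no longer passed in Ex3abERKO against Ex3bERKO, nor Slpi (0.0673) in Ex3aERKO against Ex3bERKO, while Agt (0.0346) and Eppin (0.0404) passed in Ex3abERKO against Ex3aERKO and Spink8 (0.0466) in Ex3abERKO against Ex3bERKO.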

Other observations

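Other probes of the cluster, looked at after their values were seen, are given with no test. A probe without a current symbol, between those of Klk1b8 and Klk1b1 (chromosome 7, 40136135 to 40136194, mm7), read -0.061, 0.45, -0.95 and -1.02 in Ex3aERKO, against -2.16, -1.95, -2.63 and -3.48 in control, 2.16 ± 0.54 higher. Its Ex3bERKO arrays read -1.72, -1.8, -0.49 and -3.15 and its Ex3abERKO arrays -3.3, -2.66, -1.67 and -1.87. Another, between those of Klk1b27 and Klk1b21 (40248869 to 40248928), differed by 0.30 ± 0.43 in Ex3aERKO, 0.62 ± 0.43 in Ex3bERKO and 0.20 ± 0.43 in Ex3abERKO. The probe of the pseudogene Klk1b7-ps was not well above background on any of the 16 arrays.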
